A study of Homo sapiens with 12 samples.

Results

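Transcripts of 9 factors of nonsense-mediated mRNA decay (NMD), UPF1, UPF2, UPF3A, UPF3B, SMG1, SMG5, SMG6, SMG8 and SMG9, were followed in 2 liver cancer cell lines after knockdown (KD) of UBL5. They were picked by gene symbol as members of the UPF and SMG families. All 9 were listed for both lines, among 15781 genes listed for both, and all 9 passed the filter on low counts in each line. Poly(A) RNA was sequenced from Huh7 cells given UBL5 siRNA, Huh7 cells given Ctrl-siRNA (a non-target siRNA), HepG2 cells given UBL5 siRNA and HepG2 cells given Ctrl-siRNA, with 3 libraries per group and 12 in all. Huh7 and HepG2 are established human lines, labelled as hepatocellular carcinoma of WT genotype, and all cells were transfected with the RNAiMAX reagent and carried no other alteration in the labels. The labels give 52 h for every sample, whereas the legend of the study gives a shorter time, and the methods list a single siRNA product against UBL5. Nothing in the sources used here tells whether replicate libraries stem from separate transfections, and a p-value therefore reflects only how far these libraries spread, which may be technical. UBL5 is a small ubiquitin-like protein known for its part in pre-mRNA splicing.

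NMD is the pathway that destroys mRNAs whose translation stops too early, and it also sets the level of many normal mRNAs. UPF1 is its central RNA helicase, UPF2 and the paralogs UPF3A and UPF3B connect UPF1 to exon junction complexes left behind by splicing, and the kinase SMG1, held by its partners SMG8 and SMG9, phosphorylates UPF1. Phosphorylated UPF1 recruits SMG6, an endonuclease that cuts the mRNA, and SMG5, which takes part in removing the phosphates and in starting decay of the mRNA. The mRNAs of UPF1, UPF2, UPF3B, SMG1, SMG5 and SMG6 are known NMD targets themselves and build up in human cells when NMD is blocked.

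The 9 genes did not move as a block with UBL5 KD. In Huh7 cells, UPF1, UPF3B, SMG1 and SMG8 rose and SMG5, SMG6 and UPF2 fell. In HepG2 cells, SMG1 rose and SMG5, SMG9 and UPF3A fell. These are the genes called by the edgeR test at an adjusted p under 0.05. By that rule SMG1 was higher and SMG5 lower in both lines. The fitted change had the same sign in both lines for 8 of the 9 genes. The largest changes were 1.61-fold for UPF1 and 1.57-fold for UPF3B in Huh7 cells. The deepest fall was that of SMG6 in Huh7 cells, to 0.653 of its Ctrl-siRNA level. SMG5 was at 0.677 of its Ctrl-siRNA level in Huh7 cells and at 0.670 of it in HepG2 cells.

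The genes lie on 7 chromosomes of GRCh38, and none of them overlaps another. UPF1 spans chr19:18831959-18868230 (+ strand), UPF2 spans chr10:11920022-12043170 (− strand), UPF3A spans chr13:114281601-114305817 (+ strand) and UPF3B spans chrX:119834022-119852998 (− strand). SMG1 spans chr16:18804860-18926408 (− strand), SMG5 spans chr1:156249224-156282825 (− strand), SMG6 spans chr17:2059839-2303785 (− strand), SMG8 spans chr17:59209400-59215239 (+ strand) and SMG9 spans chr19:43727983-43754962 (− strand). RefSeq promoter sequences (GRCh38.p14, 250 bases before to 50 bases after the start site) were matched for 8 of the 9 genes, SMG8 excepted. The 3 windows of 60 bases shown here hold the letters TCGCGA, which read the same on both strands, and they are printed because UPF3A, UPF3B and SMG5 were the promoters among the 8 with these letters. The capitals mark the 6 letters, and each sequence is written along the strand of its gene.
UPF3A promoter, chr13:114281562-114281621, + strand: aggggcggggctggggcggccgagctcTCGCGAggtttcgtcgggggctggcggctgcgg
UPF3B promoter, chrX:119853050-119853109, − strand: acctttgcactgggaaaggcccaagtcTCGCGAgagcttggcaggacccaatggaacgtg
SMG5 promoter, chr1:156282874-156282933, − strand: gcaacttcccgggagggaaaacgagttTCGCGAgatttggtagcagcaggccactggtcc

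The first of the 6 letters lay at −12 from the start site in UPF3A, at −119 in UPF3B and at −81 in SMG5, whose promoter held a second copy outside the window. The letters were found in 3.12% of all 35116 RefSeq promoters of the same length. They were chosen after the promoters had been read, a match is a description of the sequence alone, and the 3 genes did not share a direction of change: UPF3B rose in Huh7 cells, UPF3A fell in HepG2 cells and SMG5 fell in both lines.

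Each Huh7 library held 20710925 to 22126273 gene counts with UBL5 siRNA and 19469574 to 27158770 with Ctrl-siRNA. A HepG2 library held 19983681 to 24245412 with UBL5 siRNA and 23672962 to 29744471 with Ctrl-siRNA. UBL5 itself was at 5.80 to 6.67 CPM (counts scaled to a common library total) with UBL5 siRNA, against 67.1 to 70.8 CPM with Ctrl-siRNA, in Huh7 cells. The same comparison in HepG2 cells gave 2.80 to 6.88 CPM with UBL5 siRNA, against 55.5 to 60.4 CPM with Ctrl-siRNA, with an exact two-sided permutation p of 0.1 in each line, the smallest that 3 against 3 libraries allow. The count columns of replicate 3 of both HepG2 groups lack a name suffix that all the others carry, and whether they were processed apart is not given in the sources used here. One library stood apart: HepG2 Ctrl-siRNA replicate 3 had no count for 1773 of the listed genes, against 159 to 233 in the other HepG2 libraries. Results that change without it are given with and without it. Transcripts encoded by the mitochondrial genome took 2.66% to 3.72% of counts with UBL5 siRNA and 2.46% to 3.30% with Ctrl-siRNA in Huh7 cells, and 2.75% to 3.61% with UBL5 siRNA and 1.91% to 2.35% with Ctrl-siRNA in HepG2 cells. The 8 hepatocyte markers were all listed in both lines, at summed levels of 22593 to 23329 CPM with UBL5 siRNA and 22233 to 23124 CPM with Ctrl-siRNA in Huh7 cells, and of 36992 to 41062 CPM with UBL5 siRNA and 37022 to 39834 CPM with Ctrl-siRNA in HepG2 cells. Of 6 leukocyte markers, 2 were listed in Huh7 and 4 in HepG2 cells, and PTPRC and CD3E were listed in neither line. Without LYZ the leukocyte markers summed to 4.21 to 5.21 CPM with UBL5 siRNA and 1.55 to 1.80 CPM with Ctrl-siRNA in Huh7 cells, and to 5.48 to 9.16 CPM with UBL5 siRNA and 2.09 to 4.17 CPM with Ctrl-siRNA in HepG2 cells. LYZ brought the full list to 328 to 345 CPM with UBL5 siRNA and 578 to 593 CPM with Ctrl-siRNA in Huh7 cells, and to 973 to 1218 CPM with UBL5 siRNA and 1686 to 2218 CPM with Ctrl-siRNA in HepG2 cells. The 6 fibroblast markers summed to 17.5 to 30.1 CPM with UBL5 siRNA and 32.4 to 36.6 CPM with Ctrl-siRNA in Huh7 cells, and to 9.96 to 26.0 CPM with UBL5 siRNA and 8.05 to 14.1 CPM with Ctrl-siRNA in HepG2 cells. The endothelial markers stayed at or under 6.51 CPM in every library. The part of these marker sums and mitochondrial shares in the results was not tested. In bulk RNA, fewer cells with a transcript and less of it per cell cannot be told apart.

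Expressed per kilobase of the merged exons of a gene, so that genes can be set side by side, SMG5 and UPF1 were the most abundant of the 9 transcripts and SMG6 the least in each of the 4 groups. SMG5 averaged 44.4 ± 0.625 CPM per kb with UBL5 siRNA and 65.6 ± 1.43 with Ctrl-siRNA in Huh7 cells (SD, n = 3 each). UPF1 averaged 39.5 ± 0.728 CPM per kb with UBL5 siRNA and 24.6 ± 1.58 with Ctrl-siRNA in the same line, so that the gap between the top 2 transcripts narrowed. In HepG2 cells with UBL5 siRNA the SMG5 and UPF1 libraries overlapped, with means of 23.9 and 21.4 CPM per kb. With Ctrl-siRNA in HepG2 cells they stood apart, at 35.7 CPM per kb for SMG5 and 18.9 for UPF1.

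Below these, the order in Huh7 cells with UBL5 siRNA was UPF3B (14.8 CPM per kb), SMG8 (10.6), SMG1 (9.43), UPF2 (6.26), SMG9 (3.40), UPF3A (2.79) and SMG6 (1.36), with no overlap between neighbours. With Ctrl-siRNA in Huh7 cells it was UPF3B (9.45), SMG8 (8.35), UPF2 (7.64), SMG1 (7.42), SMG9 (3.56), UPF3A (2.64) and SMG6 (2.07), where SMG8 overlapped UPF2 and UPF2 overlapped SMG1. HepG2 cells with UBL5 siRNA had the order SMG8 (13.8), UPF3B (8.005), SMG1 (7.87), UPF2 (5.70), UPF3A (3.27), SMG9 (2.77) and SMG6 (1.85), in which UPF3B and SMG1 overlapped. SMG8 therefore ranked above UPF3B in HepG2 cells and below it in Huh7 cells. With Ctrl-siRNA the HepG2 order was SMG8 (13.2), UPF2 (7.13), SMG1 (6.35), UPF3B (6.26), UPF3A (4.41), SMG9 (4.005) and SMG6 (2.24), with overlaps of UPF2 with SMG1, of SMG1 with UPF3B and of UPF3A with SMG9. The order depends on the length used. Per kilobase of the main transcript, an alternative added after the data were seen, UPF1 led with UBL5 siRNA, at 66.3 CPM per kb in Huh7 cells beside 51.6 for SMG5, and at 35.9 in HepG2 cells beside 27.8 for SMG5. SMG5 still led with Ctrl-siRNA on that scale, at 76.3 CPM per kb in Huh7 cells beside 41.3 for UPF1, and at 41.6 in HepG2 cells beside 31.7 for UPF1. UPF3A then lay above SMG9 in all 4 groups, and SMG6 was the least abundant with either length. Summed over the 9 genes, the level was 992 to 1001 CPM with UBL5 siRNA and 907 to 927 CPM with Ctrl-siRNA in Huh7 cells, with no overlap, and 632 to 722 CPM with UBL5 siRNA and 636 to 757 CPM with Ctrl-siRNA in HepG2 cells, with overlap.

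**Figure D1:**
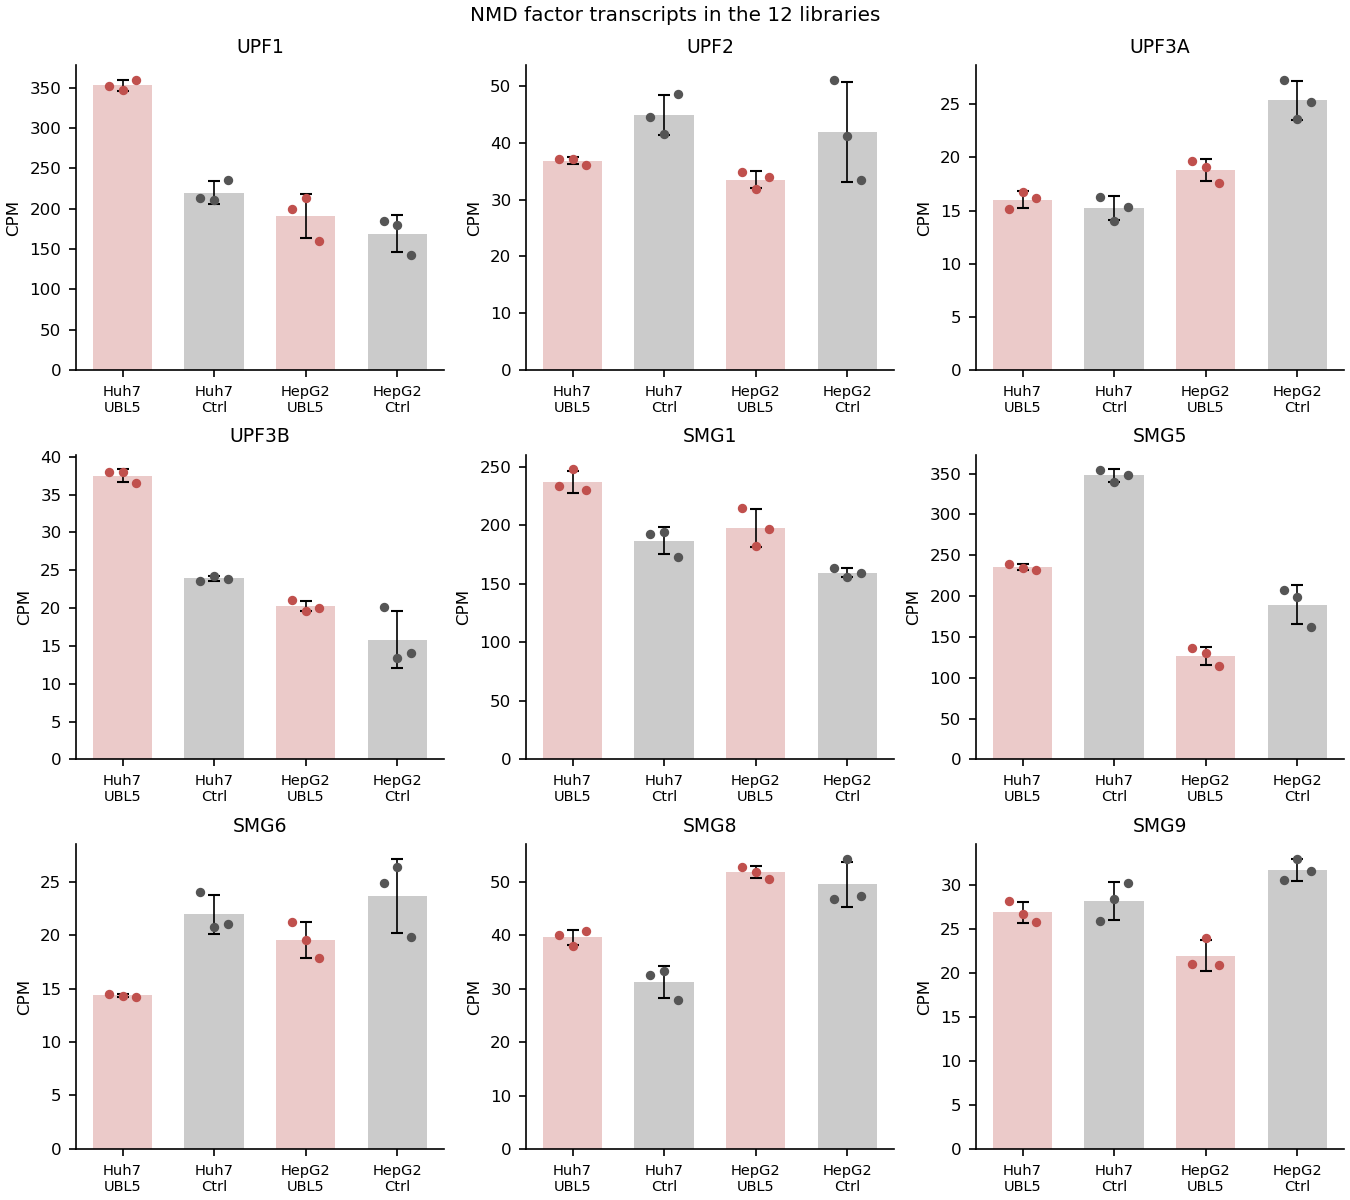
CPM of each of the 9 NMD factors (vertical axes, from 0) in the 12 libraries, with UBL5 siRNA in red left of Ctrl-siRNA in grey for Huh7 and then HepG2 cells; points are libraries, bars are means and whiskers are 1 SD. The Huh7 points of UPF1, UPF3B, SMG5 and SMG6 leave a wide gap between the siRNA groups, and the HepG2 points of UPF1, UPF2, UPF3B, SMG6 and SMG8 overlap.

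Of the 9 genes, 4 were higher and 3 lower in Huh7 cells at an adjusted p under 0.05 (edgeR quasi-likelihood test, adjusted over all genes tested). Among all 16965 genes tested in Huh7 cells, 34.9% were higher and 36.4% lower, and among protein-coding genes 76.1% passed in either direction. In HepG2 cells 1 of the 9 was higher and 3 were lower, beside 16.5% higher and 20.1% lower of all 15755 genes tested and 43.0% of protein-coding genes in either direction. The shares of the 9 genes that passed were thus near those of protein-coding genes. The genes that passed were in each line the genes whose UBL5 siRNA and Ctrl-siRNA libraries did not overlap, a separation that 73.9% of all genes tested had in Huh7 and 53.0% in HepG2 cells. Of the 6 members named above as NMD targets themselves, 3 were higher (SMG1, UPF1 and UPF3B) and 3 lower (SMG5, SMG6 and UPF2) in Huh7 cells, and 1 was higher (SMG1) and 1 lower (SMG5) in HepG2 cells. The fitted change had the same sign in both lines for 8 of the 9 genes, UPF3A being the exception, and for 74.7% of the 14518 genes tested in both.

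UPF1, the helicase at the center of the pathway, had the largest increase of the 9 in Huh7 cells. It had 352, 347 and 359.9 CPM with UBL5 siRNA, against 213, 211 and 236 CPM with Ctrl-siRNA. The lowest UBL5 siRNA library thus lay above the highest Ctrl-siRNA library, and the log2 fold change was 0.68 (SE 0.0515, adjusted p = 3.10e-07). HepG2 cells had 200.1, 213 and 159.8 CPM with UBL5 siRNA, against 185, 179 and 143 CPM with Ctrl-siRNA, and replicate 3 was the lowest library of each group. The HepG2 groups overlapped, with a log2 fold change of 0.18 with a 95% interval of −0.13 to 0.48 (adjusted p = 0.34). UPF1 was higher with UBL5 siRNA in all 3 pairs of HepG2 libraries with the same replicate number, and the fit with that number as a block gave 0.18 (adjusted p = 0.066). Left out in turn, no library brought UPF1 past the threshold in HepG2 cells.

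UPF2, the adaptor between UPF1 and the UPF3 proteins, was lower in Huh7 cells. Its Huh7 levels were 37.1, 37.2 and 36.1 CPM with UBL5 siRNA, against 44.6, 41.6 and 48.6 CPM with Ctrl-siRNA. The groups did not overlap and the log2 fold change was −0.29 (SE 0.0677, adjusted p = 0.00256). In HepG2 cells UPF2 had 34.8, 31.8 and 33.98 CPM with UBL5 siRNA, against 51.1, 41.3 and 33.5 CPM with Ctrl-siRNA. Ctrl-siRNA replicate 3 lay within the range of the UBL5 siRNA libraries and the other Ctrl-siRNA libraries lay above it. The HepG2 log2 fold change was −0.32 with a 95% interval of −0.67 to 0.02 (adjusted p = 0.133). Without Ctrl-siRNA replicate 3 it was −0.46 (adjusted p = 0.0131), past the threshold, and without replicate 3 of either group it was −0.46 (adjusted p = 0.0148).

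The paralogs UPF3A and UPF3B bind the exon junction complex, and UPF3B rose in Huh7 cells while UPF3A fell in HepG2 cells. UPF3B had 37.99, 37.99 and 36.5 CPM with UBL5 siRNA, against 23.6, 24.2 and 23.9 CPM with Ctrl-siRNA in Huh7 cells. No library of one group came near the other, and the log2 fold change was 0.65 (SE 0.0604, adjusted p = 1.83e-06). UPF3B in HepG2 cells had 21.03, 19.7 and 20.1 CPM with UBL5 siRNA, against 20.1, 13.4 and 14.1 CPM with Ctrl-siRNA. Ctrl-siRNA replicate 1 was level with the UBL5 siRNA libraries and the other Ctrl-siRNA libraries were lower, giving a log2 fold change of 0.35 with a 95% interval of −0.03 to 0.74 (adjusted p = 0.14). Within the same-numbered HepG2 pairs UPF3B was higher with UBL5 siRNA in 3 of 3, at 0.38 (adjusted p = 0.0692) with the block. Without Ctrl-siRNA replicate 1 it was 0.56 (adjusted p = 0.0229), past the threshold. UPF3A had 15.1, 16.8 and 16.2 CPM with UBL5 siRNA, against 16.3, 14.04 and 15.3 CPM with Ctrl-siRNA in Huh7 cells, with overlapping groups and a log2 fold change of 0.07 with a 95% interval of −0.12 to 0.26 (adjusted p = 0.464). In HepG2 cells UPF3A had 19.7, 19.1 and 17.6 CPM with UBL5 siRNA, against 27.3, 23.6 and 25.2 CPM with Ctrl-siRNA. All 3 UBL5 siRNA libraries were below all 3 Ctrl-siRNA libraries, and the log2 fold change was −0.43 (SE 0.118, adjusted p = 0.0198). The adjusted p moved over the threshold without UBL5 siRNA replicate 2 (log2 fold change −0.41, adjusted p = 0.0831), without UBL5 siRNA replicate 3 (−0.36, adjusted p = 0.0765) and without Ctrl-siRNA replicate 1 (−0.38, adjusted p = 0.0789). UPF3AP2, an intronless copy of UPF3A on chromosome 17, had 15, 17 and 13 counts with UBL5 siRNA, against 53, 47 and 0 with Ctrl-siRNA, in HepG2 cells. In Huh7 cells it had 1, 2 and 6 counts with UBL5 siRNA, against 20, 15 and 14 with Ctrl-siRNA. These counts came to at most 8.33% of the UPF3A count of a library, and their part in the UPF3A values was not tested.

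SMG1, the kinase that phosphorylates UPF1, was the member called higher in both lines. UPF1, UPF3B and SMG8 also had positive log2 fold changes in both lines and were called in Huh7 cells only. In Huh7 cells it had 234, 248 and 230.0 CPM with UBL5 siRNA, against 192, 194 and 173 CPM with Ctrl-siRNA, with a log2 fold change of 0.35 (SE 0.0543, adjusted p = 0.000134). HepG2 levels of SMG1 were 215, 183 and 197 CPM with UBL5 siRNA, against 163, 156 and 159.6 CPM with Ctrl-siRNA. Neither line had a Ctrl-siRNA library as high as its lowest UBL5 siRNA library. The HepG2 log2 fold change was 0.31 (SE 0.0853, adjusted p = 0.0203). This call was lost without UBL5 siRNA replicate 1 (0.25, adjusted p = 0.0613), without Ctrl-siRNA replicate 1 (0.33, adjusted p = 0.0501) and without Ctrl-siRNA replicate 2 (0.30, adjusted p = 0.0777), and it was kept without Ctrl-siRNA replicate 3. SMG1 has pseudogene copies on chromosome 16 that share its sequence, of which 6 were listed in Huh7 and 4 in HepG2 cells. Their summed counts came to 1.79% to 3.65% of the SMG1 count in Huh7 libraries and 0.188% to 2.13% in HepG2 libraries, with the lowest value, 9 counts, in Ctrl-siRNA replicate 3. How reads that fit several copies were counted is not given in the sources used here, so SMG1 is uncertain to that extent.

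SMG8 and SMG9, the subunits that hold SMG1, each passed the test in a single line, SMG8 in Huh7 and SMG9 in HepG2 cells. SMG8 had 39.96, 37.9 and 40.8 CPM with UBL5 siRNA, against 32.6, 33.3 and 27.8 CPM with Ctrl-siRNA in Huh7 cells. The groups stood apart and the log2 fold change was 0.34 (SE 0.0763, adjusted p = 0.00188). In HepG2 cells SMG8 had 52.8, 51.9 and 50.5 CPM with UBL5 siRNA, against 46.8, 54.3 and 47.4 CPM with Ctrl-siRNA, with the UBL5 siRNA libraries inside the range of the others and a log2 fold change of 0.06 with a 95% interval of −0.16 to 0.29 (adjusted p = 0.649). An RNA on the same strand shares 11.3% of the exon bases of SMG8. SMG9 in Huh7 cells had 28.1, 26.6 and 25.8 CPM with UBL5 siRNA, against 25.9, 28.3 and 30.2 CPM with Ctrl-siRNA, with overlap and a log2 fold change of −0.06 with a 95% interval of −0.23 to 0.10 (adjusted p = 0.456). Its HepG2 levels were 20.9, 23.98 and 20.9 CPM with UBL5 siRNA, against 30.5, 32.9 and 31.6 CPM with Ctrl-siRNA. The HepG2 groups were clearly apart, at a log2 fold change of −0.53 (SE 0.112, adjusted p = 0.00636), and the adjusted p ran from 0.000303 to 0.0319 over the alternatives run.

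SMG5, which binds phosphorylated UPF1, was the member called lower in both lines. UPF2, SMG6 and SMG9 also had negative log2 fold changes in both lines, each called in a single line. It had 239, 235 and 232 CPM with UBL5 siRNA, against 355, 339.8 and 349 CPM with Ctrl-siRNA in Huh7 cells. Each group spanned a narrow range far from the other, with a log2 fold change of −0.56 (SE 0.0417, adjusted p = 2.68e-07). In HepG2 cells it had 137, 129.8 and 114 CPM with UBL5 siRNA, against 208, 198 and 162 CPM with Ctrl-siRNA, with replicate 3 lowest in each group and no overlap. The HepG2 log2 fold change was −0.58 (SE 0.115, adjusted p = 0.0048), and the adjusted p stayed between 2.62e-05 and 0.0245 in the 14 alternatives run, with any 1 library left out among them.

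SMG6, the endonuclease, was the scarcest transcript of the 9 per kilobase. In Huh7 cells it had 14.5, 14.3 and 14.3 CPM with UBL5 siRNA, against 24.1, 20.7 and 21.01 CPM with Ctrl-siRNA. The UBL5 siRNA libraries differed little among themselves and were all below the Ctrl-siRNA libraries, with a log2 fold change of −0.61 (SE 0.0828, adjusted p = 3.94e-05). HepG2 cells had 21.2, 19.5 and 17.9 CPM with UBL5 siRNA, against 24.9, 26.4 and 19.8 CPM with Ctrl-siRNA for SMG6, where Ctrl-siRNA replicate 3 lay among the UBL5 siRNA libraries. The HepG2 log2 fold change was −0.28 with a 95% interval of −0.60 to 0.05 (adjusted p = 0.169), and without Ctrl-siRNA replicate 3 it was −0.39 (adjusted p = 0.0287), past the threshold. SMG6 was lower with UBL5 siRNA in 3 of 3 same-numbered HepG2 pairs, at −0.27 (adjusted p = 0.0954) with the block. Genes on the opposite strand, HIC1 among them, overlap 24.7% of the exon bases of SMG6. The paper describes stranded libraries, but the strand setting of the counting is not given, so SMG6 counts may include reads of these genes.

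**Figure D2:**
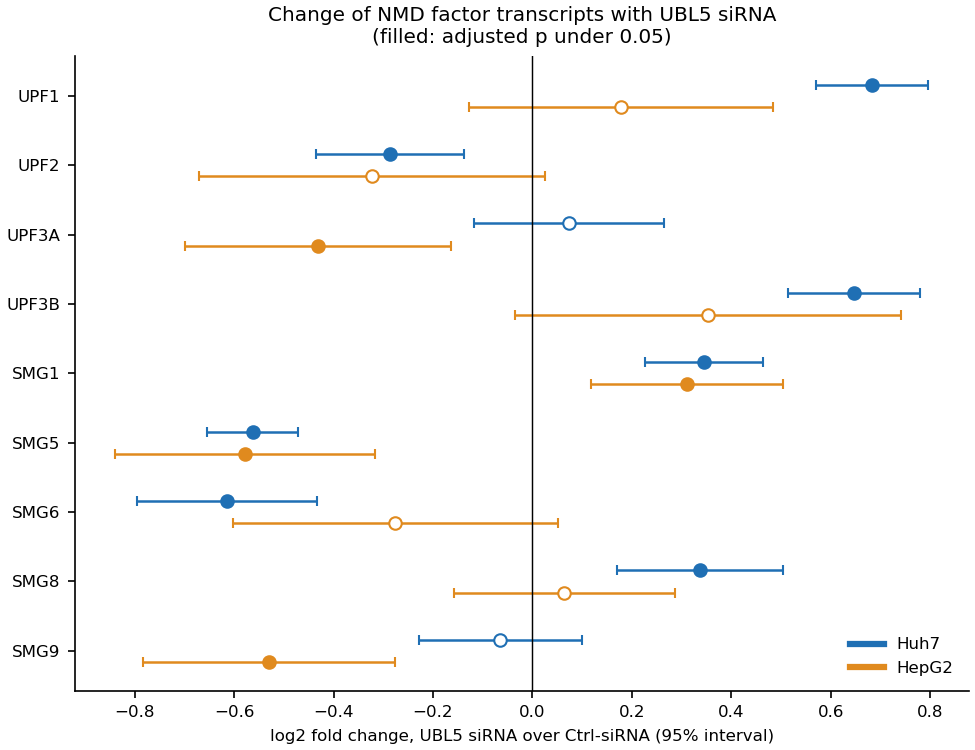
Log2 fold change of UBL5 siRNA over Ctrl-siRNA (horizontal axis) for the 9 NMD factors, with Huh7 cells in blue above HepG2 cells in orange; whiskers are 95% intervals of the edgeR fit and filled points passed an adjusted p under 0.05. Intervals are wider in HepG2 cells, SMG1 and SMG5 are filled in both lines, and UPF1 is at 0.68 in Huh7 and 0.18 in HepG2 cells.

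An interaction term over all 12 libraries asked whether UBL5 siRNA changed a gene differently in the 2 lines. That fit, which also gave the Ctrl-siRNA comparison, used 1 estimate of spread per gene for both lines. Fitted alone, HepG2 libraries spread more than Huh7 libraries, with a biological coefficient of variation of 0.189 in HepG2 and 0.0663 in Huh7 cells. The part of this in the calls was not tested. The change was higher in Huh7 than in HepG2 cells for UPF1, UPF3A and SMG9, 3 of the 9, beside 11.7% of the 15668 genes tested. For UPF1 the difference, Huh7 minus HepG2, was 0.48 (SE 0.146, adjusted p = 0.0327) on the log2 scale. UPF3A differed by 0.48 (SE 0.141, adjusted p = 0.0281) and SMG9 by 0.44 (SE 0.127, adjusted p = 0.0259). Among the 9, 0 were called with a lower change in Huh7 cells by edgeR and 0 by DESeq2, beside 9.88% of all genes by edgeR, and 1, SMG6, had an unadjusted p under 0.05 (difference −0.37 with a 95% interval of −0.72 to −0.01 (adjusted p = 0.139)). The intervals of the other differences were −0.36 to 0.38 for UPF2, −0.12 to 0.65 for UPF3B, −0.22 to 0.23 for SMG1, −0.27 to 0.24 for SMG5 and −0.03 to 0.52 for SMG8, each of which includes 0. The 3 called differences kept their sign in all 19 alternatives, between 0.37 and 0.58 for UPF1, 0.41 and 0.54 for UPF3A, and 0.37 and 0.50 for SMG9, but their calls did not hold throughout. Under upper-quartile scaling all 3 missed the threshold, with adjusted p of 0.0654 for UPF1, 0.0543 for UPF3A and 0.0591 for SMG9, and UPF1 also missed it when libraries were scaled by total counts alone (adjusted p = 0.058). The call for UPF1 was lost without Huh7 UBL5 siRNA replicate 1 (0.48, adjusted p = 0.0608), Huh7 UBL5 siRNA replicate 2 (0.49, adjusted p = 0.0591), Huh7 UBL5 siRNA replicate 3 (0.46, adjusted p = 0.0679), Huh7 Ctrl-siRNA replicate 1 (0.46, adjusted p = 0.07), Huh7 Ctrl-siRNA replicate 2 (0.45, adjusted p = 0.0796), HepG2 UBL5 siRNA replicate 3 (0.37, adjusted p = 0.0571), HepG2 Ctrl-siRNA replicate 1 (0.41, adjusted p = 0.0653) or HepG2 Ctrl-siRNA replicate 2 (0.43, adjusted p = 0.073). The call for UPF3A was lost without Huh7 UBL5 siRNA replicate 2 (0.44, adjusted p = 0.0789), Huh7 UBL5 siRNA replicate 3 (0.47, adjusted p = 0.0615), Huh7 Ctrl-siRNA replicate 2 (0.42, adjusted p = 0.0817), Huh7 Ctrl-siRNA replicate 3 (0.47, adjusted p = 0.0593), HepG2 UBL5 siRNA replicate 2 (0.48, adjusted p = 0.0502), HepG2 UBL5 siRNA replicate 3 (0.44, adjusted p = 0.0538) or HepG2 Ctrl-siRNA replicate 1 (0.43, adjusted p = 0.0601). The call for SMG9 was lost without Huh7 UBL5 siRNA replicate 1 (0.40, adjusted p = 0.0699), Huh7 UBL5 siRNA replicate 2 (0.44, adjusted p = 0.0575), Huh7 Ctrl-siRNA replicate 1 (0.38, adjusted p = 0.0715), Huh7 Ctrl-siRNA replicate 2 (0.44, adjusted p = 0.0557) or HepG2 Ctrl-siRNA replicate 2 (0.41, adjusted p = 0.0546).

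With Ctrl-siRNA alone, the 2 lines already differed for most of the 9 genes. UPF1, UPF3B and SMG5 were higher in Huh7 than in HepG2 cells, beside 32.0% of all genes tested, and UPF3A, SMG8 and SMG9 were lower, beside 31.7%. SMG5 averaged 340.2 ± 7.93 CPM in Huh7 and 198 ± 23.7 CPM in HepG2 cells (SD, n = 3 each, scaled over the 12 libraries), a log2 difference of 0.78 (SE 0.0838, adjusted p = 1.69e-06). UPF3A averaged 14.9 ± 1.13 CPM in Huh7 and 26.5 ± 1.86 CPM in HepG2 cells, with a log2 difference of −0.83 (SE 0.0996, adjusted p = 5.38e-06). The same direction held for SMG8, at 30.6 ± 3.15 CPM in Huh7 and 51.7 ± 4.26 CPM in HepG2 cells, with a log2 difference of −0.75 (SE 0.0894, adjusted p = 4.80e-06). UPF3A and SMG8 thus had the largest deficits in Huh7 cells and SMG5 the largest excess. The remaining calls were UPF3B, at 0.50 (SE 0.128, adjusted p = 0.00343), UPF1, at 0.29 (SE 0.103, adjusted p = 0.0248), and SMG9, at −0.27 (SE 0.0890, adjusted p = 0.0182). UPF1 missed the threshold without HepG2 Ctrl-siRNA replicate 3 (0.19, adjusted p = 0.0954) and without Huh7 Ctrl-siRNA replicate 3 (0.23, adjusted p = 0.107). SMG9 missed it without HepG2 Ctrl-siRNA replicate 2 (−0.24, adjusted p = 0.0567) or Huh7 Ctrl-siRNA replicate 1 (−0.23, adjusted p = 0.0669), under upper-quartile scaling (−0.21, adjusted p = 0.0565) and with total counts alone (−0.15, adjusted p = 0.185). UPF2 differed by 0.01 with a 95% interval of −0.25 to 0.27 (adjusted p = 0.966), SMG1 by 0.13 with a 95% interval of −0.03 to 0.29 (adjusted p = 0.13) and SMG6 by −0.20 with a 95% interval of −0.45 to 0.05 (adjusted p = 0.146). Without HepG2 Ctrl-siRNA replicate 3, SMG6 was lower in Huh7 cells (−0.31, adjusted p = 0.014), and SMG1 was higher under upper-quartile scaling (0.19, adjusted p = 0.0348), with total counts alone (0.25, adjusted p = 0.00678) and in DESeq2 (0.17, adjusted p = 0.0468).

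For partner or paralog factors, the ratio of their transcripts was taken within each library, per kilobase of merged exons, for 3 pairs. The pairs were chosen after the values had been seen, so their ratios are a description with no test. UPF1 over UPF2 was 6.31 ± 0.221 with UBL5 siRNA and 3.23 ± 0.102 with Ctrl-siRNA in Huh7 cells (SD, n = 3 each), and 3.76 ± 0.654 with UBL5 siRNA and 2.68 ± 0.264 with Ctrl-siRNA in HepG2 cells. UPF3B over UPF3A was 5.33 ± 0.333 with UBL5 siRNA and 3.59 ± 0.318 with Ctrl-siRNA in Huh7 cells, and 2.45 ± 0.126 with UBL5 siRNA and 1.41 ± 0.231 with Ctrl-siRNA in HepG2 cells. Of the paralogs, UPF3B was the one called in Huh7 cells and UPF3A the one called in HepG2 cells. SMG8 over SMG9 was 3.12 ± 0.193 with UBL5 siRNA and 2.36 ± 0.371 with Ctrl-siRNA in Huh7 cells, and 5.004 ± 0.389 with UBL5 siRNA and 3.30 ± 0.163 with Ctrl-siRNA in HepG2 cells. The size of a ratio depends on the length used, and its change with UBL5 siRNA does not. Per kilobase of the main transcript, UPF3B over UPF3A was 2.37 with UBL5 siRNA and 1.60 with Ctrl-siRNA in Huh7 cells, and 1.09 with UBL5 siRNA and 0.628 with Ctrl-siRNA in HepG2 cells, so that UPF3A was the higher of the paralogs in HepG2 cells with Ctrl-siRNA. On the same scale UPF1 over UPF2 was 9.31 with UBL5 siRNA and 4.76 with Ctrl-siRNA in Huh7 cells, and 5.55 with UBL5 siRNA and 3.95 with Ctrl-siRNA in HepG2 cells. SMG8 over SMG9 was 2.51 with UBL5 siRNA and 1.91 with Ctrl-siRNA in Huh7 cells, and 4.04 with UBL5 siRNA and 2.66 with Ctrl-siRNA in HepG2 cells.

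**Figure D3:**
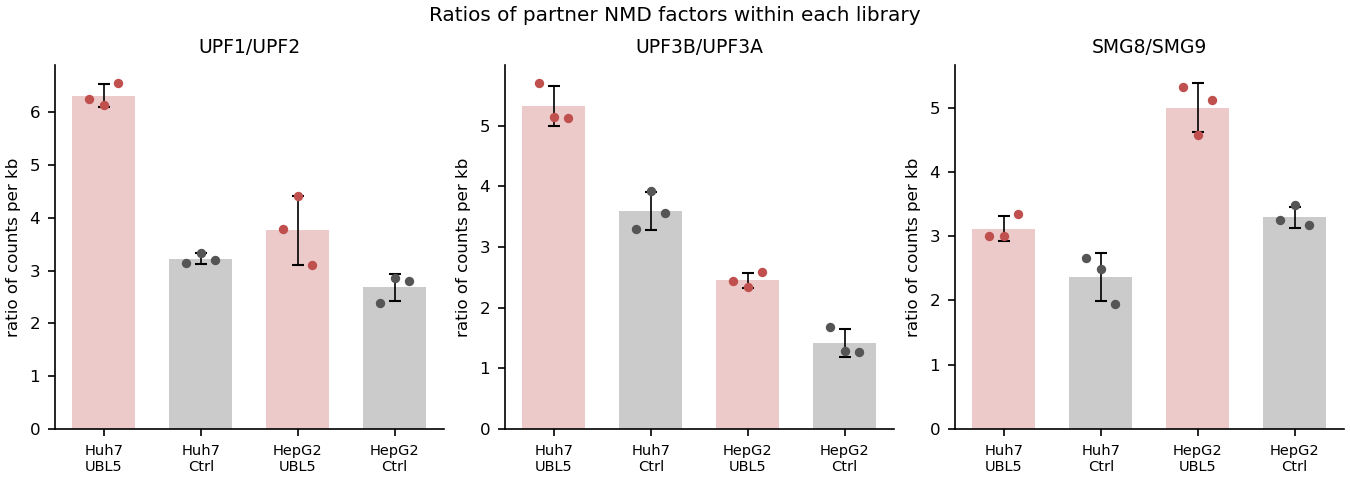
Ratios of partner or paralog transcripts per kilobase of merged exons (vertical axes, from 0) within each of the 12 libraries, UBL5 siRNA in red left of Ctrl-siRNA in grey for Huh7 and then HepG2 cells; points are libraries, bars are means and whiskers are 1 SD. UPF1 over UPF2 averages 6.31 with UBL5 siRNA, against 3.23 with Ctrl-siRNA, in Huh7 cells; the pairs were chosen after the values had been seen.

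Other genes of the pathway were read from lists written from general knowledge, and their medians and counts are given beside the 9 factors. They are to be read against 34.9% higher and 36.4% lower of all genes tested in Huh7 cells, and 16.5% higher and 20.1% lower in HepG2 cells. The median log2 fold change of the 9 was 0.07 in Huh7 and −0.28 in HepG2 cells, beside −0.01 for all genes tested in Huh7 and 0.01 for those tested in HepG2 cells. Among 19 proteins that work with the UPF and SMG factors, 8 were higher and 5 lower in Huh7 cells (median 0.03), and 3 were higher and 3 lower in HepG2 cells (median −0.08). The 6 that passed in HepG2 cells became 10 with the replicate number as a block, 10 without replicate 3 of either group and 10 in one fit with both lines. ETF1, the release factor that recognizes stop codons, rose by 1.32 (adjusted p = 1.21e-09) in Huh7 cells and by 0.84 (adjusted p = 0.000158) in HepG2 cells. NBAS, a factor of Golgi transport that also takes part in NMD at the endoplasmic reticulum, had log2 fold changes of −1.02 (adjusted p = 1.39e-07) in Huh7 cells and of −0.54 (adjusted p = 0.0041) in HepG2 cells. PABPC4, a poly(A)-binding protein, rose by 0.60 (adjusted p = 1.47e-07) in Huh7 cells and by 0.33 (adjusted p = 0.011) in HepG2 cells.

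In the exon junction complex list, which also holds peripheral proteins, 8 of 10 genes were higher in Huh7 cells (median 0.53) and 6 of 10 in HepG2 cells (median 0.56). This stands beside 34.9% of all genes in Huh7 and 16.5% in HepG2 cells. In either line 0 were lower by edgeR or by DESeq2, with 0 in Huh7 and 1 in HepG2 cells lower at an unadjusted p under 0.05 in edgeR. Not every gene of the list rose. RBM8A averaged 32.7 CPM with UBL5 siRNA and 40.4 with Ctrl-siRNA in HepG2 cells, with no overlap, and 82.1 and 83.8 in Huh7 cells. MAGOHB averaged 15.8 CPM with UBL5 siRNA and 15.3 with Ctrl-siRNA in HepG2 cells, and 19.0 and 19.3 in Huh7 cells. ALYREF, an mRNA export adaptor, rose by 1.67 (adjusted p = 1.86e-09) in Huh7 cells and by 1.38 (adjusted p = 7.13e-05) in HepG2 cells. RNPS1, a peripheral protein of the complex, rose by 1.42 (adjusted p = 8.29e-10) in Huh7 cells and by 1.28 (adjusted p = 7.13e-05) in HepG2 cells. EIF4A3, the core helicase of the complex, rose by 0.77 (adjusted p = 1.84e-07) in Huh7 cells and by 0.57 (adjusted p = 0.00232) in HepG2 cells.

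Transcripts known as NMD targets did not share one direction. Of 10 spliced host RNAs of small nucleolar RNAs, which carry short reading frames, 6 were higher in Huh7 cells (median 0.65), and 4 of the 9 tested were higher in HepG2 cells (median 0.31), beside 34.9% of all genes in Huh7 and 16.5% in HepG2 cells. In this list 0 were lower in either line by edgeR, by DESeq2 or at an unadjusted p under 0.05 in edgeR. SNHG15 rose by 1.89 (adjusted p = 5.29e-10) in Huh7 cells and was not analysed in HepG2 cells. SNHG16 rose by 1.01 (adjusted p = 8.86e-08) in Huh7 cells and by 0.83 (adjusted p = 0.00839) in HepG2 cells. SNHG1 rose by 1.19 (adjusted p = 4.56e-09) in Huh7 cells and had a log2 fold change of 0.31 (adjusted p = 0.113) in HepG2 cells, where the fit with the replicate number as a block gave 0.33 (adjusted p = 0.0496). Without Ctrl-siRNA replicate 1 the HepG2 value for SNHG1 was 0.47 (adjusted p = 0.0238). Genes on the opposite strand overlap 28.5% of the exon bases of SNHG16, 58.9% of SNHG6, 51.2% of EPB41L4A-AS1, 37.6% of SNHG8 and 36.4% of ZFAS1. They overlap none of SNHG1 and SNHG15. The paper describes stranded libraries, but the strand setting of the counting is not given. Counts of the overlapped host RNAs may therefore include reads of other genes. Among 20 mRNAs known as NMD targets, 7 were higher and 4 lower in Huh7 cells (median 0.06). In HepG2 cells 19 of them passed the filter, with 4 higher and 4 lower (median 0.11), and 5 in all passed without UBL5 siRNA replicate 1, UBL5 siRNA replicate 2 or Ctrl-siRNA replicate 2. These are mRNAs of which many also respond to the integrated stress response or to splicing feedback. SRSF3, a splicing factor that controls its own mRNA, rose by 0.61 (adjusted p = 3.22e-07) in Huh7 cells and by 0.47 (adjusted p = 0.00238) in HepG2 cells. TBL2 rose by 0.78 (adjusted p = 7.59e-08) in Huh7 cells and by 0.35 (adjusted p = 0.0315) in HepG2 cells, where it was at 0.27 to 0.38 with an adjusted p of 0.0533 to 0.1 without any 1 of UBL5 siRNA replicates 1 and 2 and Ctrl-siRNA replicates 1, 2 and 3. GABARAPL1, an autophagy protein, moved in opposite directions, at −1.32 (adjusted p = 3.25e-08) in Huh7 cells and at 0.86 (adjusted p = 0.00733) in HepG2 cells.

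**Figure D4:**
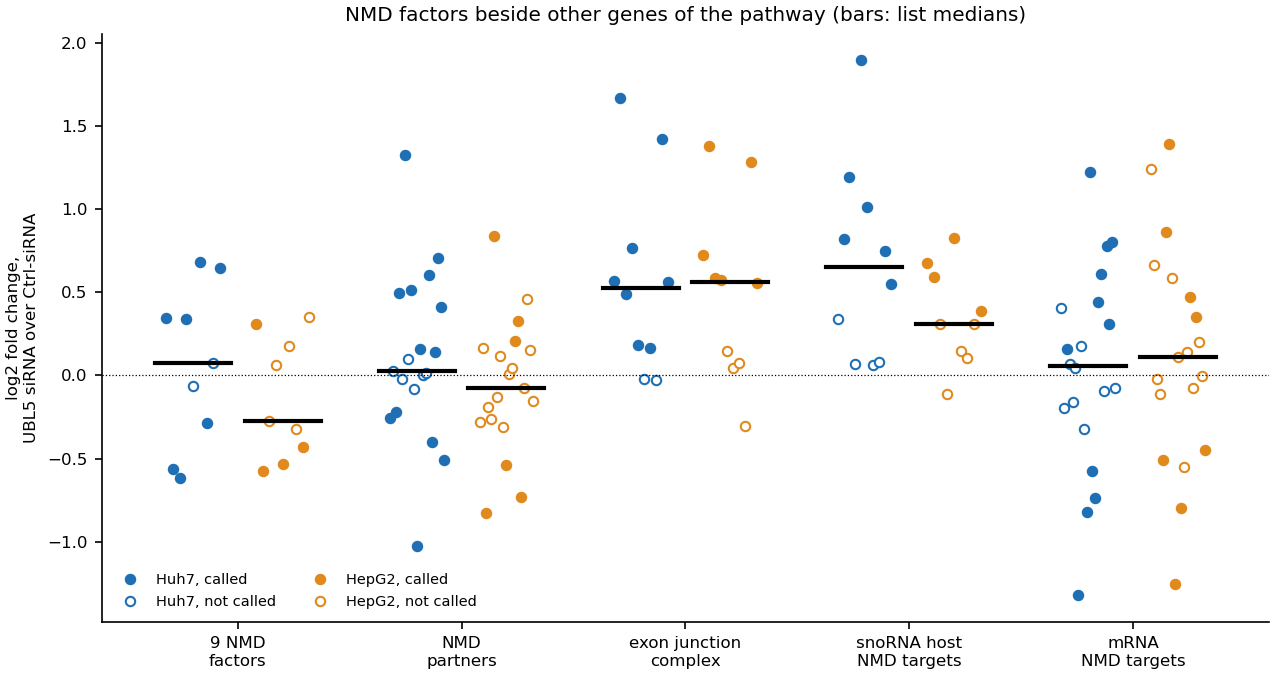
Log2 fold change of UBL5 siRNA over Ctrl-siRNA (vertical axis) for the 9 NMD factors and for 4 lists of other genes of the pathway, Huh7 cells in blue left of HepG2 cells in orange; each point is a gene, filled where the adjusted p was under 0.05, and black bars are list medians. Filled points of the 9 factors lie on both sides of 0 in each line, and those of the exon junction complex and the small nucleolar RNA hosts lie above 0.

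The members differed in the features of their annotated main transcripts that are linked to NMD. The 3′ UTR of the 9 ranged from 228 bases in SMG8 to 4709 in SMG1, with a median of 1363, beside a median of 1290 for the 14128 protein-coding genes listed. SMG9 had 3613 bases, UPF1 1713, SMG6 1649, SMG5 1363, UPF2 1276, UPF3A 900 and UPF3B 856. The 2 longest belonged to SMG1, which was called higher in both lines, and to SMG9, which was called lower in HepG2 cells. The HepG2 call of SMG1 held in 11 of 14 alternatives. An upstream open reading frame that ends within the 5′ UTR was found in SMG5 and SMG9, 2 of the 9, beside 34.9% of all. SMG5 fell in both lines, and SMG9 fell in HepG2 cells and was not called in Huh7 cells. SMG1 and UPF2 had an upstream ATG with no stop codon in frame within the 5′ UTR. With these, 4 of the 9 had an upstream ATG, beside 41.5% of all. UPF1 alone had an intron after its stop codon, beside 4.19% of all, at any distance from the stop codon. Annotated transcripts of the NMD class existed for 4 of the 9, beside 45.6% of all, and the number of exons ran from 4 in SMG8 to 63 in SMG1. Gene counts do not separate these transcripts from the productive ones, and the part of any of these features in the changes was not tested.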

How the data were processed

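RNA-seq libraries of Huh7 and HepG2 cells (3 with UBL5 siRNA and 3 with Ctrl-siRNA in each line) were grouped by their GEO labels. Per the submitters' processing notes and the paper's methods, the authors used bcl2fastq for demultiplexing, FastQC 0.11.9 for quality, STAR 2.7.6a for alignment to GRCh38, and deposited raw counts per gene from featureCounts, whose version, annotation, strand setting and treatment of multi-mapping reads are not given in the sources used here. The deposited score columns, log2 fold changes, p-values and adjusted p-values of the authors' DESeq2 1.30.0 comparison were not used. Of the count columns, 0 were left unmatched to a sample. The counts of each line were deposited as an upregulated and a downregulated set of genes, which were joined. A gene is listed for a line only if it was in one of these sets, and library totals are sums over listed genes. Listed genes had at least 15 counts in all in Huh7 and 11 in HepG2 cells.

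Counts were analysed with R 4.3.3 and edgeR 4.0.16 (quasi-likelihood F test, filterByExpr with a minimum count of 10 and a minimum total of 15, TMM scaling, Benjamini-Hochberg adjustment over all genes tested, threshold 0.05, no minimum fold). Each line was fitted alone. The difference between lines and the Ctrl-siRNA comparison came from one fit of 4 groups over the 15668 genes tested in the 12 libraries. CPM values carry the TMM factors, and levels per kilobase use the merged exon length of GENCODE release 44, which held 18398 of 18434 identifiers of Huh7 and 17603 of 17640 of HepG2 cells. Marker sums use total counts. Tables and figures were made with Python 3.11.15, pandas 2.3.3, scipy 1.17.1 and matplotlib 3.10.9. The fitting steps were run on simulated counts as a check of the code only. The simulation had a fixed spread and few changed genes, unlike these data, so it does not bear on the calls.

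Alternatives were median-ratio, upper-quartile and total-count scaling, no filter, DESeq2 1.42.0, the replicate number as a block, one fit of both lines, and each library left out. Leaving out replicate 3 of both HepG2 groups and levels per kilobase of the main transcript (Ensembl canonical) were added after the data were seen. Replicate numbers were checked for pairing over genes with a mean of at least 10 CPM: deviations of libraries with the same number correlated at 0.41, 0.32 and 0.34 in HepG2 cells, over 0.1 in every pair, and at 0.44, 0.06 and 0.57 in Huh7 cells. They were taken as paired in HepG2 cells only, where every pair was over 0.1. Whether the Huh7 libraries are paired is not known. The main fits of both lines had no block on the number. The lists were the 9 members, NMD partners, exon junction complex, small nucleolar RNA hosts, NMD target mRNAs, pseudogenes of SMG1 and UPF3A, and hepatocyte, leukocyte, fibroblast and endothelial markers. Named genes are the members, UBL5, the top 3 called genes per pathway list by adjusted p over the lines, the pseudogenes listed, and the 5 protein-coding genes most like the members' mean. One gene of the NMD partner list is not reported here. The members and lists were chosen with earlier results of these data known. For genes with many counts, the precision is set by the spread between libraries rather than by depth.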

Additional observations from a re-analysis of the deposited data

Results flagged for a closer look

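The change with UBL5 siRNA differed between the lines for 3 of the 9 NMD factors by the interaction test of edgeR. The difference, Huh7 minus HepG2, was 0.48 for UPF1 (adjusted p = 0.0327), with all 3 UBL5 siRNA libraries above all 3 Ctrl-siRNA libraries in Huh7 cells and overlapping groups in HepG2 cells. It was 0.48 for UPF3A (adjusted p = 0.0281) and 0.44 for SMG9 (adjusted p = 0.0259), and for these genes the groups overlapped in Huh7 cells while all 3 UBL5 siRNA libraries were below all 3 Ctrl-siRNA libraries in HepG2 cells. These calls did not hold throughout: of 19 alternatives, UPF1 passed the threshold in 9, UPF3A in 11 and SMG9 in 13, and none of the 3 passed it under upper-quartile scaling. With 3 libraries per group, no test for a single outlying library was run.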

How the results depend on the processing

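In Huh7 cells the calls of the 9 factors were the same in the 13 alternatives run. These include the block on the replicate number, although the numbers were not taken as pairs in Huh7 cells. In HepG2 cells, where the numbers were taken as pairs, the block changed no call of the 9, and UPF1 was at 0.18 (adjusted p = 0.066) with it. It also changed no call of the difference between the lines. The number of factors called higher in HepG2 cells was 2, SMG1 and UPF3B, in one fit with both lines. With each library left out it was 0 to 1, and the number called lower was 2 to 5. Over the 14 HepG2 alternatives, UPF3B passed the threshold in 2 and UPF2 in 3. Of all HepG2 genes, 1834 to 3378 were higher and 1985 to 3892 lower with a library left out, with the fewest lower without UBL5 siRNA replicate 2. The number of factors whose change was higher in Huh7 than in HepG2 cells was 0 under upper-quartile scaling and 0 to 3 with a library left out. Differences near 0 changed sign with no call. UPF2 was at −0.011 with median-ratio scaling, −0.061 with upper-quartile scaling, −0.011 in DESeq2, −0.0064 with the replicate block and −0.16 to 0.14 with a library left out. SMG1 was at −0.012, −0.063, −0.012 and −0.0013 with median-ratio scaling, upper-quartile scaling, DESeq2 and total counts, and at −0.055 to 0.067 with a library left out. SMG5 ran from −0.083 to 0.081 with a library left out and was at 0.018 without HepG2 replicate 3 of either group. UBL5 ran from −0.083 to 0.54 with a library left out and was at −0.10 without HepG2 replicate 3 of either group. UPF3A in Huh7 cells was at −0.0086 with total counts. Between the lines with Ctrl-siRNA, UPF2 was at −0.0074 without a filter, −0.13 without HepG2 replicate 3 of either group and −0.13 to 0.15 with a library left out. Total counts moved the median of all genes in that comparison to 0.14, against 0.02 with TMM. Upper-quartile scaling left 42.7% of called differences between the lines higher in Huh7 cells, against 54.1% with TMM. The cause of these changes was not tested.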

Other observations

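Over the 12 libraries, with each line centred on its own mean, the protein-coding genes whose log2 CPM followed the mean of the 9 NMD factors most closely were DSCC1 (Pearson r = 0.964), THAP11 (0.954), HMGB3 (0.950), KIF18A (0.945) and EVL (0.937). These are the highest of all protein-coding genes tested in both lines, the libraries share siRNA groups and scaling, and the values are a description of these libraries.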
